A study of Oncorhynchus mykiss with 6 samples.

Results

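In livers of rainbow trout (Oncorhynchus mykiss), 37 listed genes with a symbol had almost no reads at 18 °C and clearly measurable reads after 8 h at 24 °C. Members were chosen by their counts and symbol. They are the rows with at most 3 counts summed over the 3 control libraries, at least 60 counts summed over the 3 heat libraries, and a symbol that does not start like those of the heat shock proteins, the DnaJ and UNC45 families, apolipoprotein B or the PFKFB enzymes. The 37 are part of 5045 rows in the authors' deposited table and carry 36 distinct symbols, since VWA7 stands there in 2 member rows. The working description of the set is named genes without a chaperone-type name that are silent at 18 °C, and the data fit it only in part. No control count at all was recorded for 13 members, while 9 had 1 count, 8 had 2 and 7 had 3. Both Bag3 and chordc1, 2 of the 37, encode co-chaperones although their symbols do not start with the excluded letters.

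The heat group is liver at 24 °C for 8 h (3 libraries) and the control group is liver at 18 °C (3 libraries). The labels describe the exposure as one of the liver and give no strain, age or sex. They do not say whether the libraries come from separate fish, so p-values below reflect only how much these libraries vary, which may be technical variation. Below, heat livers and control livers stand for the libraries of each group, and n and SD refer to libraries. The series asks how trout liver responds to heat stress.

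Heat makes proteins unfold, and cells answer through heat shock factors, transcription factors that bind heat shock elements in promoters and switch on chaperones together with a smaller set of genes that do not fold proteins. The best known of these are co-chaperones, adaptors that hand substrates to Hsp70 or Hsp90 or pass them on to degradation. The liver also releases hormones, iron regulators and protease inhibitors in stress and inflammation. Trout descend from an ancestor whose genome doubled, so many genes have near-identical copies.

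The table lists genes the authors had already selected as changed. Over its rows the heat libraries held 2663575 to 3586127 counts and the control libraries 1409460 to 1421082 counts. Relative library totals recovered from counts and FPKM were 1.14 to 1.55 in the heat libraries and 0.999 to 1.02 in the control libraries. FPKM is the fragment count scaled to transcript length and to the mapped fragments of the library, so it can be compared between genes. In the limma-voom test, 2770 of the 4766 rows with enough counts (58.1%) rose at an adjusted p under 0.05 and 1996 (41.9%) fell. Every tested row of this preselected table was thus called. The count filter of the test asked for at least 10 counts in 3 libraries. A row under 10 counts in every library of a group passed only through the other group, so its direction was largely fixed. When scaled by the median of ratios of the listed genes, log2 differences shifted by a median of -0.92, and 45.7% of the calls were then upward.

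The members had 6266 counts in the heat libraries and 46 in the control libraries. By library this was 2521, 1934 and 1811 in heat replicates 1 to 3 and 16, 17 and 13 in control replicates 1 to 3. The few control counts were spread evenly over the 3 control libraries, each of which held counts of 11 members. These were largely different members, since 16 had counts in only 1 control library and 8 in 2 or more. Heat and control values did not overlap in any of the 37 members, which the count limits on both sums strongly favour. Of all 5045 rows, 56.8% had no overlap in FPKM with heat above control, and 54 rows (1.07%) met both count limits whatever their symbol. Because these counts chose the members, the differences below are a description and carry no test.

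The heat level was low for most members. Mean FPKM over the heat libraries ranged from 0.233 for SLC12A1 to 9.58 for SPINK1, with a median of 0.799, against a median of 1.499 over all listed rows. It reached 1 FPKM in 15 members and 5 FPKM in 2. Transcripts of genes this low can come from all cells or from a few, and in bulk liver fewer expressing cells and less RNA per cell cannot be told apart.

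**Figure D1:**
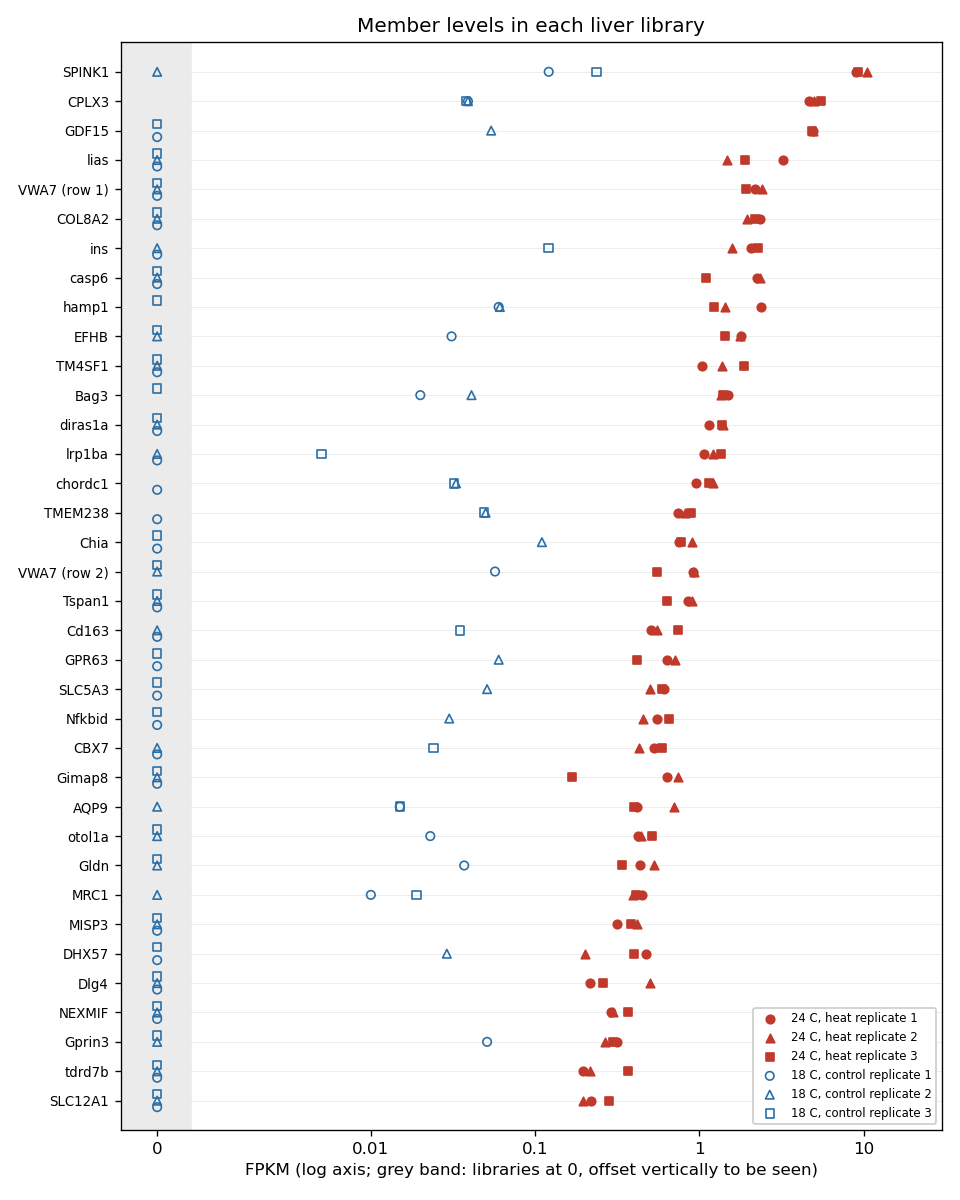
FPKM (log axis) of 36 member rows in each library, with filled red symbols for the 3 libraries at 24 °C and open blue symbols for the 3 libraries at 18 °C. Libraries at 0 lie in the grey band, and members are ordered by heat level from SPINK1 (9.58 FPKM) down to SLC12A1 (0.233 FPKM). No control symbol reaches a heat symbol of the same member.

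The size of the difference is given as the ratio of summed counts at equal library totals. Where the control libraries held no count, a floor of 3 counts over the control group gives a lower bound. Where they held 1 to 3 counts, the ratio has an exact 95% interval. These intervals and floors cover counting error only, and replicate libraries at low counts varied 2.15 to 2.38 times as much as counting allows. The ratio or bound had a median of 44.1 over the members and ranged from at least 17.2-fold for Gimap8 to 753 for lrp1ba. Leaving out 1 control library moved it by over 1.5 times in 33 of the 37 members, and the lowest value reached in any member was 10.7. Where the remaining 2 control libraries held no count, the floor of 3 counts was set against them, which lowers the value by construction. This includes the 13 members without a control count. Leaving out control replicate 3 also lowered the value by just over 1.5 times in members without a count there. Their control counts stayed while the library total shrank, as in Chia (22.2 to 14.7). The number 33 is thus largely set by arithmetic and does not measure dependence on single control libraries.

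**Figure D2:**
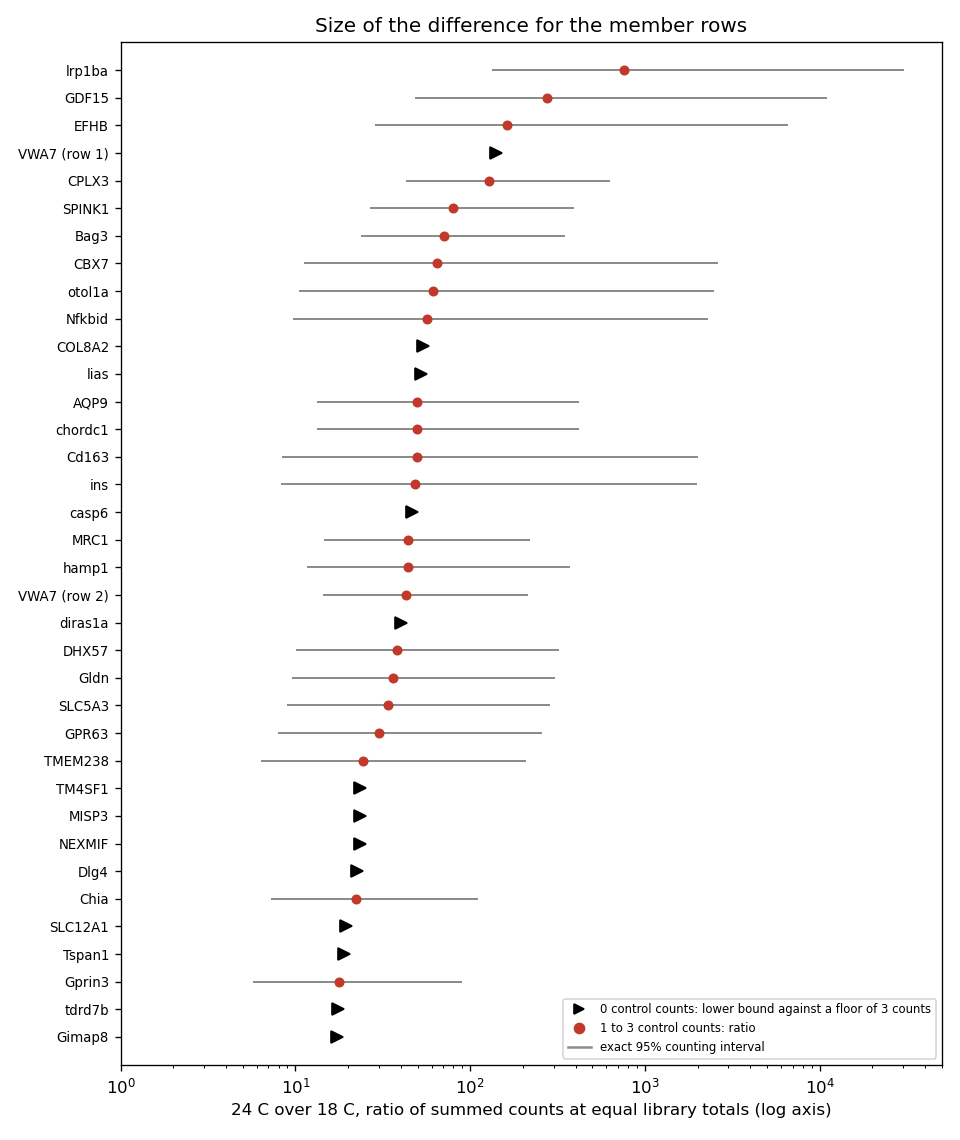
Ratio of 24 °C over 18 °C counts at equal library totals (log axis) for 36 member rows, with exact 95% counting intervals as grey lines. Black triangles are lower bounds for the 13 members without a control count, such as VWA7 at 141, and the widest intervals belong to members with 1 control count, such as lrp1ba.

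The co-chaperones Bag3 and chordc1 are known heat shock factor targets in mammals. Bag3 binds Hsp70 and links it to autophagy of damaged proteins. Its member row had 1.504, 1.351 and 1.397 FPKM in the heat libraries, against 0.020, 0.041 and 0 FPKM in the control libraries. The highest heat library was 1.11 times the lowest, a coefficient of variation of 5.54%. The ratio was 70.7 with an interval of 23.9 to 345. For chordc1, whose product binds Hsp90 in mammals, FPKM was 0.959, 1.21 and 1.14 in the heat libraries, against 0, 0.033 and 0.032 in the control libraries. All 3 heat libraries were at a similar level, and the ratio was 49.7 (13.5 to 415).

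Of the list of heat shock factor targets other than chaperones, 14 of 36 symbols were listed, in 21 rows that include both members. Of its 19 other rows, all tested, 15 rose and 4 fell, with a median log2 difference of 2.81, against 1.13 and 58.1% risen over all tested rows. Despite its name the list holds SERPINH1, a chaperone of collagen. The genes named from the lists here and below were chosen after their values were seen. SERPINH1 averaged 140 ± 7.82 FPKM in heat livers and 5.22 ± 0.412 FPKM in control livers (SD, n = 3 each). Bag2, another Hsp70 co-chaperone, rose 44.3-fold in one row and 15.4-fold in the other. Its control means were 0.863 and 5.58 FPKM, so both Bag2 rows, unlike the 2 members, were well read at 18 °C. Among the rows that fell were 2 of the polyubiquitin gene UBB and the row of hsbp1b, an inhibitor of heat shock factors in mammals. Another UBB row rose 6.79-fold, with 114 counts in the heat libraries and 14 in the control libraries.

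The 4 members grouped here as secreted hormones or protease inhibitors had 1.68 to 9.58 FPKM in heat livers, with a median of 3.43. Each of these had at least 1 count in the control libraries. Members grouped under other roles, such as Chia and otol1a, can also encode secreted proteins and are not counted here. SPINK1, a trypsin inhibitor that in mammals is made by the pancreas and in inflammation also by the liver, was at 9.04, 10.5 and 9.18 FPKM in the heat libraries, against 0.121, 0 and 0.237 FPKM in the control libraries. Its ratio was 79.3 (26.9 to 387), and no heat library stood apart. GDF15, a stress hormone of the TGF-beta family that in mammals acts on the hindbrain to curb feeding, was at 4.90, 4.89 and 4.87 FPKM in the heat libraries, against 0, 0.054 and 0 FPKM in the control libraries. The heat values of GDF15 were the most even of all members, with a coefficient of variation of 0.344%. They rest on 142, 107 and 103 counts, and so small a spread is below the counting error of such counts. It cannot be read as a trait of the gene. The ratio of GDF15 was 275, with an interval of 49.1 to 10910 because it rests on 1 control count.

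Hepcidin, the hormone that limits iron export from cells by closing ferroportin, is encoded by hamp1. The member row of hamp1 had 2.37, 1.44 and 1.22 FPKM in the heat libraries, against 0.060, 0.061 and 0 FPKM in the control libraries. Heat replicate 1 was the highest, and the ratio was 43.8 (11.9 to 366). The second listed hamp1 row held nearly all hepcidin reads, with 105, 101 and 101 FPKM in the heat libraries, against 1.096, 0.732 and 1.836 FPKM in the control libraries. That row rose by 6.68 ± 0.387 (SE) on the log2 scale, or 102-fold (limma-voom adjusted p = 1.56e-21). The member therefore supplied 1.62% of the FPKM listed for hamp1 in heat livers.

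Insulin (ins), the hormone that lowers blood glucose, had 26, 15 and 21 counts in the heat libraries, against 0, 0 and 1 in the control libraries. This short transcript thereby reached 2.07, 1.58 and 2.29 FPKM in the heat libraries on few reads, with a ratio of 48.5 (8.39 to 1946). A second listed ins row had 21, 10 and 8 counts in the heat libraries, against 0, 1 and 0 in the control libraries, too few for the test. Insulin is a marker of the endocrine pancreas, and of 18 pancreas marker symbols ins was the only one listed. The FPKM summed over both ins rows was 2.63 to 3.73 in heat libraries and 0 to 0.124 in control libraries, and the part of pancreatic cells in the ins and SPINK1 values was not tested.

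Of 43 cytokine, growth factor and hormone symbols, 10 were listed, in 12 rows that include GDF15 and ins as members. Of the 7 other rows tested, 3 rose and 4 fell, where 58.1% of all tested rows rose. The list holds hepcidin as hamp, so the hamp1 rows above were not matched and are not in these counts. Interleukin 11 (il11) averaged 3.15 FPKM in heat livers and 0.0393 FPKM in control livers, and with 5 control counts it missed the member limit. The il11 row, among those that rose, passed the count filter only through the heat libraries. Leptin (lep) rose 16.2-fold, to 66.9 ± 5.23 FPKM in heat livers, against 4.10 ± 0.135 FPKM in control livers (SD, n = 3 each). Both igf1 rows were among those that fell, by 1.76 and 1.98 on the log2 scale (SE 0.0633 and 0.0774). INHBB, the other row that rose, lost its call under median-of-ratios scaling (adjusted p = 0.131).

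Among genes of the matrix and cell surface, VWA7, which encodes a protein with a von Willebrand factor A domain, stood in 3 listed rows. The first member row had 218, 182 and 140 counts (2.18, 2.41 and 1.91 FPKM) in the heat libraries, and no count in the control libraries. Against the control floor, which corresponds to 0.0154 FPKM, its level in heat livers was at least 141-fold higher. The second member row had 0.918, 0.924 and 0.555 FPKM in the heat libraries, against 0.057, 0 and 0 FPKM in the control libraries. All 3 of its control counts came from control replicate 1, and its ratio was 43.0 (14.5 to 211). A further VWA7 row had 10, 7 and 5 counts in the heat libraries and none in the control libraries. All listed VWA7 rows together held 303, 246 and 178 counts in the heat libraries, against 3, 0 and 0 in the control libraries, so no listed VWA7 row had more than 3 control counts.

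The member lrp1ba encodes a very large endocytic receptor of the lipoprotein receptor family and had the most reads of all members. It had 347, 296 and 320 counts in the heat libraries, against 0, 0 and 1 in the control libraries. The length implied by count and FPKM was 5.10 times the median of the listed rows, so these counts amount to 1.07, 1.21 and 1.35 FPKM in the heat libraries. The ratio of 753 (135 to 29780) rests on 1 read in control replicate 3, and without that library it was 166 against the floor. Of 25 lipoprotein receptor symbols, 5 were listed. Besides the member, 3 rows were tested and all rose, in a table where 58.1% of tested rows did. Among them were LRP1, by 2.24-fold, and the receptor chaperone LRPAP1, by 2.60-fold. Scaled by median of ratios, LRP1 and LRPAP1 still rose, but only by 0.248 and 0.466 on the log2 scale. LRP1 was well expressed in both groups, at 32.2 ± 0.488 FPKM in heat livers and 14.4 ± 1.03 FPKM in control livers (SD, n = 3 each). The row of lrp11 had 5 counts in the heat libraries and 31 in the control libraries and was not tested.

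COL8A2 is the symbol of a collagen VIII chain, but the description of the member row begins with "compleme", so its place among the matrix genes rests on the symbol alone. The row had 2.35, 1.96 and 2.17 FPKM in the heat libraries and no control count, at least 53.5-fold higher. Another COL8A2 row with the same first letters of its description was abundant in both groups, at 177 ± 3.45 FPKM in heat livers and 36.6 ± 2.03 FPKM in control livers (SD, n = 3 each), and rose 4.85-fold (limma-voom adjusted p = 1.58e-34). The row whose description begins with "collagen" had 1 count in the heat libraries and 14 in the control libraries, too few for the test. Otolin (otol1a), a collagen-like protein of the fish inner ear that lies outside the naming rule, had 0.422, 0.443 and 0.518 FPKM in the heat libraries, against 0.023, 0 and 0 FPKM in the control libraries.

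Genes best known from the nervous system made up 7 members, with a median of 0.435 FPKM in heat livers. CPLX3, a complexin that clamps the SNARE complex of synaptic vesicles, exceeded the others. It had 4.635, 5.003 and 5.484 FPKM in the heat libraries, against 0.039, 0.039 and 0.038 FPKM in the control libraries. Each control library held 1 read, and the ratio was 129 (43.7 to 626). The small Ras-like GTPase diras1a had 1.15, 1.39 and 1.38 FPKM in the heat libraries and no control count, at least 39.9-fold higher.

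The other neural members, which lie outside the naming rule, were all under 1 FPKM. Gprin3, a G protein-regulated inducer of neurite outgrowth, had 29, 19 and 20 counts in the heat libraries, against 3, 0 and 0 in the control libraries, and its ratio of 17.7 (5.82 to 88.1) was the lowest of the ratios. NEXMIF, a regulator of neurite extension, had 33, 26 and 31 counts in the heat libraries and none in the control libraries. GPR63, an orphan G protein-coupled receptor, had 33, 28 and 16 counts in the heat libraries, against 0, 2 and 0 in the control libraries. Dlg4, the postsynaptic scaffold PSD-95, was uneven, with 24, 42 and 20 counts in the heat libraries and none in the control libraries. Gldn, described only as uncharacterised in its first letters, had 37, 34 and 21 counts in the heat libraries, against 2, 0 and 0 in the control libraries.

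Of 5 neuron marker symbols, snap25 and TUBB3 were listed, and both rose, as did 58.1% of all tested rows. The SNARE protein snap25, a partner of complexins, had 735 counts in the heat libraries and 5 in the control libraries, or 6.70 ± 0.526 FPKM in heat livers and 0.0580 ± 0.0208 FPKM in control livers (SD, n = 3 each). It rose 91.0-fold (limma-voom adjusted p = 1.63e-12). With 5 control counts, snap25 passed the count filter only through the heat libraries, so its direction was largely set by the filter and its fold is not sharp. TUBB3 rose 2.56-fold and lost its call under median-of-ratios scaling (adjusted p = 0.0770). The 2 markers summed to 9.88 to 10.5 FPKM in heat libraries and 1.32 to 1.48 FPKM in control libraries. The part of neural cells in the values of the neural members was not tested.

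The immune members were 5, all under 1 FPKM in heat livers. Chia, an acidic chitinase, had 0.753, 0.903 and 0.773 FPKM in the heat libraries, against 0, 0.110 and 0 FPKM in the control libraries, a ratio of 22.2 (7.33 to 110). Its 3 other listed rows all rose, by 3.86-, 28.9- and 3.19-fold, and the last of these lost its call under median-of-ratios scaling (adjusted p = 0.178). The row with the 28.9-fold rise had 5 control counts and passed the count filter only through the heat libraries. The summed Chia level was 5.22 ± 0.752 FPKM in heat livers and 0.842 ± 0.397 FPKM in control livers (SD, n = 3 each), and the member supplied 15.5% of the heat sum.

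Cd163 is the symbol of the haemoglobin scavenger receptor of macrophages, but the description of the member row begins with "deleted". The member had 0.506, 0.553 and 0.741 FPKM in the heat libraries, against 0, 0 and 0.035 FPKM in the control libraries. The row whose description begins with "scavenge" rose 14.9-fold, to 6.53 ± 0.975 FPKM in heat livers, against 0.320 ± 0.156 FPKM in control livers (SD, n = 3 each). With 4 control counts that row lies just outside the member limit. Another row, also with 4 control counts, rose 9.32-fold. Both of these rows passed the count filter only through the heat libraries. The last Cd163 row, with 34, 14 and 8 counts in the heat libraries and 5, 1 and 3 in the control libraries, was too low for the test.

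The other immune members, MRC1, Nfkbid and Gimap8, lie outside the naming rule. MRC1, the macrophage mannose receptor, was the most even of the immune members, with 72, 48 and 49 counts in the heat libraries, against 1, 0 and 2 in the control libraries. Nfkbid, an inhibitor protein that acts on NF-kappaB in the nucleus, had 29, 18 and 25 counts in the heat libraries, against 0, 1 and 0 in the control libraries. Gimap8, a GTPase known from lymphocytes in mammals, had 32, 28 and 6 counts in the heat libraries and none in the control libraries. Gimap8 was the least even member, with a coefficient of variation of 59.2%, and the only one to miss the count filter of the test.

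Of 10 myeloid marker symbols, 3 were listed (Cd163, mmp9 and mmp13), in 6 rows that include the Cd163 member. The 4 other rows that could be tested all rose, as did 58.1% of all tested rows, mmp9 4.82-fold and mmp13 4.18-fold. The remaining 2 of the 4 are Cd163 rows, 1 of them with a description that begins with "deleted". With 4 control counts each, these 2 passed the count filter only through the heat libraries, so their direction was largely set by it. The summed level of the 6 myeloid marker rows, the member included, was 11.8 to 14.1 FPKM in heat libraries and 1.32 to 2.03 FPKM in control libraries. Markers of lymphocytes were listed in 2 rows with a sum of 2.82 to 2.96 FPKM in heat libraries and 1.01 to 1.84 FPKM in control libraries, and the 1 tested row rose, while the other, too low for the test, had 17 counts in the heat libraries and 48 in the control libraries. The part of immune cells in the values of the immune members was not tested. None of the 8 erythrocyte and 12 muscle marker symbols was listed, although other muscle genes were, as given below. The listed hepatocyte marker, rbp4, fell to 1887 to 2150 FPKM in heat libraries, against 5711 to 6081 FPKM in control libraries. The other listed markers were 4 of gut (3 rose, 1 fell), 1 of bile duct cells, which rose, and 1 each of stroma and germ line, which fell. Scaled by median of ratios, 2 of the gut rows still rose and the bile duct row did not.

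A further 6 members were grouped as membrane proteins. TM4SF1, a surface protein with 4 membrane spans, had 1.03, 1.36 and 1.88 FPKM in the heat libraries and no control count, at least 23.5-fold higher. SLC5A3, which carries the osmolyte myo-inositol into cells with sodium, had 0.612, 0.503 and 0.589 FPKM in the heat libraries, against 0, 0.051 and 0 FPKM in the control libraries. The second SLC5A3 row was the larger one, at 2.86 ± 0.423 FPKM in heat livers and 0.643 ± 0.223 FPKM in control livers (SD, n = 3 each), and it rose 4.46-fold (limma-voom adjusted p = 3.44e-12). SLC12A1, the sodium, potassium and chloride cotransporter of the mammalian kidney, had 29, 19 and 27 counts in the heat libraries and none in the control libraries. Its second row narrowly missed the heat limit, with 8, 27 and 21 counts in the heat libraries and 0, 2 and 0 in the control libraries. The second row was lowest in heat replicate 1, and the member held 73.8% of the summed SLC12A1 FPKM in heat replicate 1, 37.8% in heat replicate 2 and 51.5% in heat replicate 3.

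Outside the naming rule were 3 further membrane members. AQP9, a channel for water and glycerol, had 43, 54 and 30 counts in the heat libraries, against 1, 0 and 1 in the control libraries. Tspan1, a tetraspanin, had 31, 25 and 17 counts in the heat libraries and none in the control libraries. TMEM238, a small membrane protein, had 23, 19 and 20 counts in the heat libraries, against 0, 1 and 1 in the control libraries, and with ins it had the fewest heat counts of all members, 62.

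Of the 8 other intracellular members, EFHB, a calcium-binding EF-hand protein, had 1.78, 1.78 and 1.43 FPKM in the heat libraries, against 0.031, 0 and 0 FPKM in the control libraries, a ratio of 163 (28.9 to 6457). The protease casp6, an executioner of apoptosis, had 2.249, 2.349 and 1.098 FPKM in the heat libraries and no control count, at least 46.2-fold higher. Heat replicate 3 had less than the other 2 heat libraries, with 29 counts against 83 and 65. The Polycomb protein CBX7, which binds methylated histones, had 0.526, 0.430 and 0.593 FPKM in the heat libraries, against 0, 0 and 0.024 FPKM in the control libraries. Its second row was also low in both groups, with 36 counts in the heat libraries and 1 in the control libraries.

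The tudor domain gene tdrd7b, known from germ cell granules, had 22, 17 and 28 counts in the heat libraries and none in the control libraries. Its second row was expressed in both groups, at 0.744 ± 0.1 FPKM in heat livers and 0.275 ± 0.0669 FPKM in control livers (SD, n = 3 each). That row rose 2.69-fold (limma-voom adjusted p = 2.95e-06), a call lost under median-of-ratios scaling (adjusted p = 0.0695). MISP3, described as uncharacterised, had 31, 31 and 28 counts in the heat libraries and none in the control libraries, and its second row rose 4.32-fold. The RNA helicase DHX57 had 50, 16 and 31 counts in the heat libraries, against 0, 2 and 0 in the control libraries. DHX57 also lies outside the naming rule.

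The last intracellular member, lias, encodes lipoyl synthase, the mitochondrial enzyme that makes the lipoyl cofactor of pyruvate dehydrogenase and related complexes. The member row had 113, 39 and 49 counts (3.21, 1.47 and 1.90 FPKM) in the heat libraries and no control count, at least 52.4-fold higher. Among members it was one of the least even, with heat replicate 1 at 2.18 times heat replicate 2 in FPKM. The second lias row had 34, 83 and 49 counts (0.799, 2.57 and 1.57 FPKM) in the heat libraries, against 99, 100 and 104 counts (3.598, 3.638 and 3.692 FPKM) in the control libraries. It fell by 1.38 ± 0.238 (SE) on the log2 scale (limma-voom adjusted p = 7.93e-07) and was the only tested second copy that fell. The heat library with the most reads in the member row had the fewest in the second row.

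Summed over both rows, lias was at 4.01, 4.04 and 3.48 FPKM in the heat libraries, against 3.598, 3.638 and 3.692 FPKM in the control libraries. The sums averaged 3.84 ± 0.316 FPKM in heat livers and 3.64 ± 0.0472 FPKM in control livers (SD, n = 3 each), a ratio of 1.05. On the FPKM scale the ranges of the 2 groups overlapped, so no difference in total lias was seen beyond the spread between libraries. Median-of-ratios scaling shifted log2 differences over the tested rows by a median of -0.92, and the lias sum was not computed under it. The share of the member row was 80.1%, 36.4% and 54.7% in the heat libraries and 0 in every control library. How reads that match both rows were divided is not given in the sources used here. In the other 12 symbols with a second listed row, the heat sum exceeded the control sum, by the smallest factor in tdrd7b (3.65 times). These sums include the member rows, which were chosen for few control and many heat counts, so the rule favours this direction. The member share of the heat sum in these symbols ranged from 1.2% in COL8A2 to 97.0% in VWA7.

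**Figure D3:**
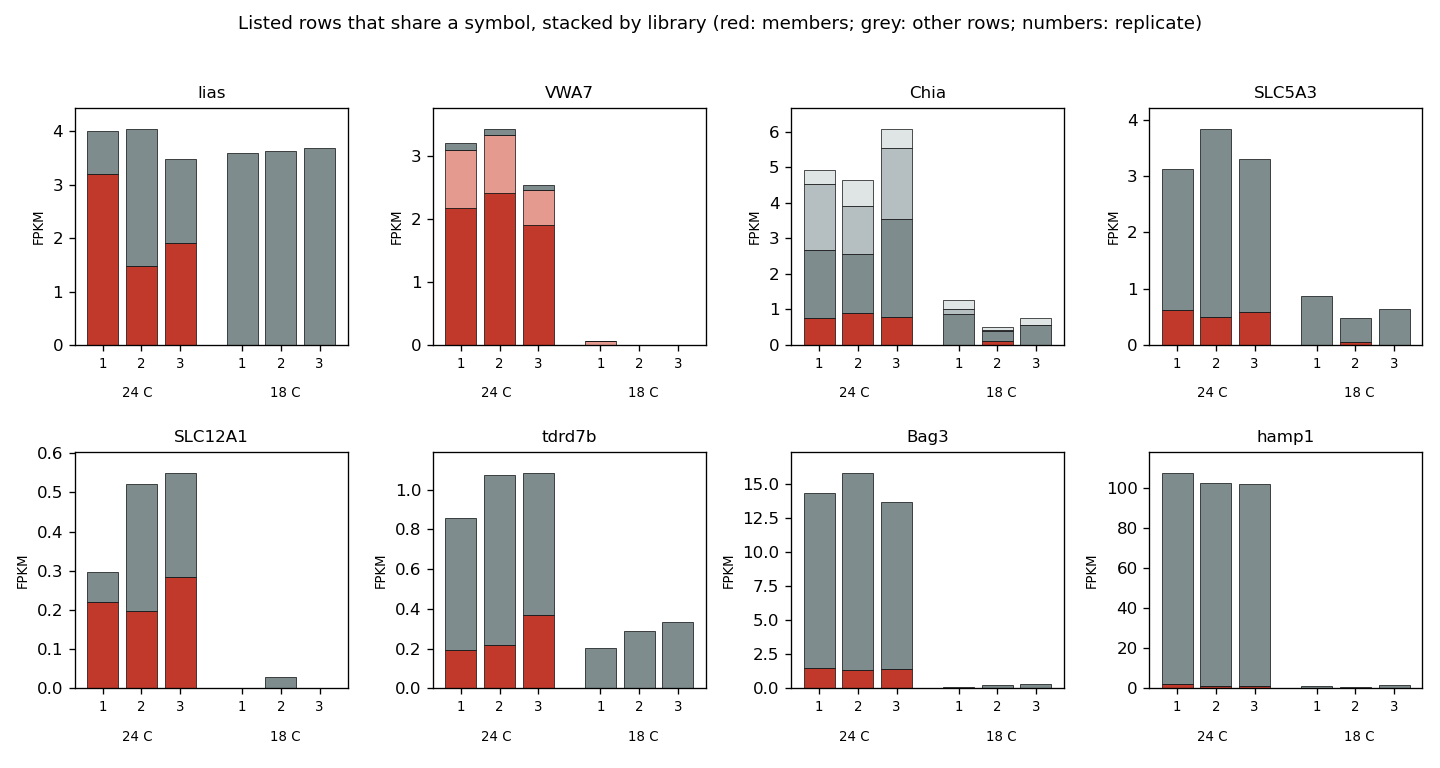
FPKM of all listed rows of 8 member symbols, stacked in each library, with the 3 libraries at 24 °C left of the 3 at 18 °C in each panel. Red parts are member rows and grey parts are other rows of the same symbol. The lias columns have nearly the same height in both groups (ratio of the means 1.05), whereas the heat columns of the other 7 symbols stand above their control columns. The red rows were chosen for few control and many heat counts, which favours that direction.

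Other listed rows existed for 14 of the 37 members (37.8%), against 34.2% of all rows with a symbol. They were 18 rows of 13 symbols. Of these, 12 had enough counts for the test, 11 rose and 1 fell, and 6 were too low. Over all tested rows 58.1% rose. The rows that rose had a median fold of 4.85, against 3.06 for all tested rows that rose. Of the 11, only 7 had at least 10 counts in a control library. The MISP3 row, 2 Cd163 rows and 1 Chia row passed the count filter only through the heat libraries, which largely fixed their direction. The filter also left out the COL8A2 row with 14 control counts and 1 heat count. The share that rose and the median fold are therefore a description only. Only 4 of the 18 had at most 3 control counts themselves, so in most of these symbols another row was read at 18 °C. In Bag3 that other row had 13.2 ± 1.14 FPKM in heat livers and 0.225 ± 0.106 FPKM in control livers (SD, n = 3 each) and rose 59.3-fold (limma-voom adjusted p = 3.75e-18), and the member supplied 9.70% of the summed heat level. Identifiers are cut to 8 characters in the table, so rows with the same symbol may be gene copies or parts of one gene, and their values are uncertain to the extent that reads match both.

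The rule used the sum over the heat libraries, not how it was divided between them. The coefficient of variation of FPKM over the 3 heat libraries had a median of 15.9% in the members, against 14.5% in the 2945 other rows within the same range of heat counts. The members had a median of 92 heat counts, and the other rows share their range but were not matched in counts. The 2 medians therefore do not show whether members are as even as other rows. The coefficient was under 15% in 18 members. In 5 members, lias, casp6, Gimap8, DHX57 and Dlg4, the highest heat library was at least 2 times the lowest. No heat library carried the set, since heat replicates 1, 2 and 3 held the highest FPKM in 11, 14 and 12 members.

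**Figure D4:**
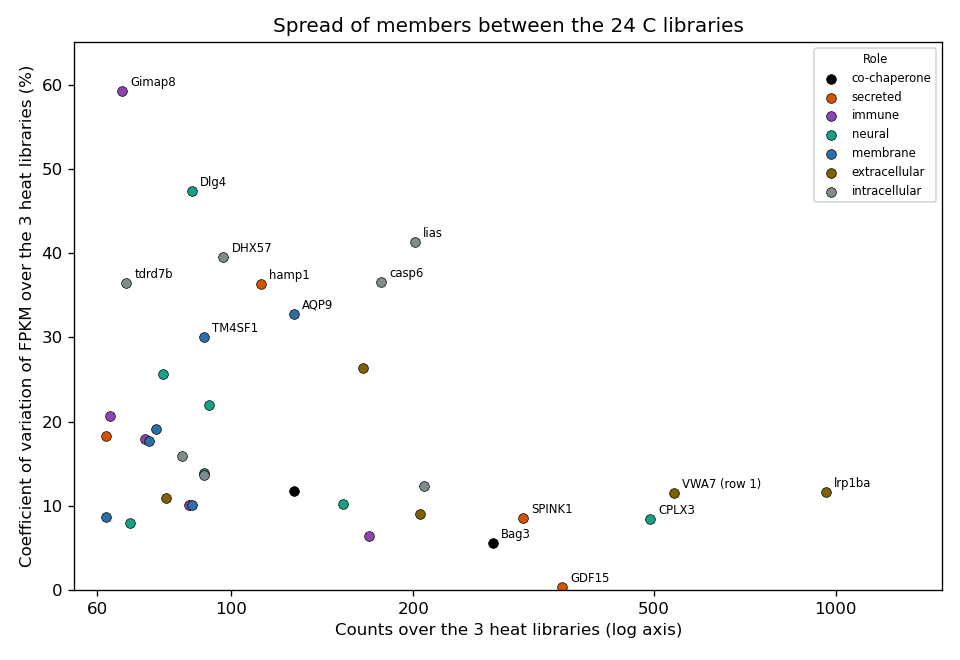
Coefficient of variation of FPKM over the 3 libraries at 24 °C (percent) against counts summed over them (log axis), 1 point for each of 36 member rows, coloured by role. GDF15 lies at 0.344% and Gimap8 at 59.2%, while lrp1ba, with the most counts (963), lies at 11.6%.

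Annotation beyond the symbol was sparse. A KEGG class was given for 6 members (16.2%), against 35.5% of the listed rows. None of the 37 members had a transcription factor family, which 441 of the listed rows had. In the list of immediate early and stress transcription factors, 18 of 44 symbols were listed in 32 rows, none of them a member, and 29 rose and 3 fell, where 58.1% of all tested rows rose. Those rows were read at 18 °C, as with fos, which averaged 8.86 ± 1.39 FPKM in heat livers and 0.362 ± 0.0838 FPKM in control livers (SD, n = 3 each). Of 43 muscle and myofibril symbols, 5 were listed, none a member, and of 5 rows tested 4 rose and 1 fell (2 and 1 under median-of-ratios scaling).

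The same count limits also took 4 rows with chaperone names (unc45b, HSPA4L, hspb11 and hsc71) and 13 rows without a symbol. Mean heat levels were 0.498 to 1.38 FPKM in the chaperone-named rows and 0.3003 to 1.859 FPKM in the rows without a symbol, against 0.233 to 9.58 FPKM in the members. The reverse pattern, at most 3 heat counts and at least 60 control counts, was found in 7 rows of any name. Just inside the control limit, the 7 members with 3 control counts had 68 to 493 heat counts. Just outside it, 13 named rows with 4 control counts had 71 to 1815 heat counts. The highest of these was tcbp2, with 720, 569 and 526 counts in the heat libraries, against 1, 3 and 0 in the control libraries. Just below the heat limit were CDR2, Samd14, the second SLC12A1 row, Padi2 and C4orf54, with 54 to 57 heat counts, against 62 for the lowest members.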

How the data were processed

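Total RNA from rainbow trout liver was sequenced as cDNA libraries, 3 at 24 °C for 8 h and 3 at 18 °C, grouped by the treatment in the labels. Ribosome profiling, which the series title also names, is not covered. The submitters' processing notes name Bowtie2 2.2.8 and StringTie. Which genome build, annotation, counting method and test the authors used is not given in the sources used here. The deposited table holds, per the file headers, a count and an FPKM value per library and the authors' log2 fold change and adjusted p-value per gene. All rows were preselected by the authors, their highest adjusted p being 0.049875 and their smallest absolute log2 fold change 1.00019. Text is cut to 8 characters per column, and 822 wrapped annotation lines were left out. Of the 36 member symbols, 8 stand in the RefSeq gene table of USDA_OmykA_1.1. Sequences of the members were not used here, and the values of 1 member are not reported here.

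Library totals were recovered from count and FPKM over 451 rows with at least 200 counts and 5 FPKM. Members were found by the count limits given above and described without a test, since these counts chose them. Other rows were tested with limma-voom (limma 3.58.1, R 4.3.3, two-sided, Benjamini-Hochberg over all 4766 rows with at least 10 counts in 3 libraries), with the recovered totals as library sizes and calls at an adjusted p under 0.05. A count model such as a quasi-likelihood test was not used, because the fixed-width count columns could not be checked by machine. The test was checked on simulated counts in which only a small part of the rows changed. That check does not cover a preselected table where every tested row was called. Other tables used Python 3.11.15 with pandas 2.3.3. Named genes are members with a mean of at least 1 FPKM in heat livers and members with another listed row or in a list; all others are said to lie outside this rule. The members and lists were chosen with earlier results of these data known. Alternatives were other count limits, scalings, filters, limma-trend on log2 FPKM, the replicate number as a block and leaving out each library. Same-numbered heat and control libraries did not deviate together.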

Additional observations from a re-analysis of the deposited data

How the results depend on the processing

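The number of members moved with the limits: from 37 to 13, 22 or 60 with a control limit of 0, 1 or 6 counts, and to 71, 17 or 9 with a heat limit of 30, 100 or 200 counts. It was 25 with counts divided by the library totals and 35 to 47 when one library was left out. The median ratio of the members, 44.1, became 56.3 with raw counts and 26.5 with totals over the listed genes. Leaving out one library gave 26.4 to 45.4. A control library left out moved the ratio of 33 of the 37 members by over 1.5 times, and a heat library that of none. Leaving out control replicate 3 does so by construction in members without a count there. This contrast therefore does not measure dependence on the control libraries. The lowest ratio of any member with 1 library left out was 10.7. A floor of 3 counts set against 2 control libraries lowers the bounds by construction. Rows that rose numbered 1678 with median-of-ratios scaling, against 2770, and 2416 to 2769 without one library. Second copies that rose numbered 7 to 11 without one library, because 4 fall below the count filter when a heat library is left out. Those that fell numbered 2 with no filter on low counts. Of the 132 values of second copies under alternatives, 2 lost their call (Chia and tdrd7b, both above) and 0 reversed. With the replicate number as a block, 2770 rows rose, 1996 fell, and 11 second copies rose and 1 fell, as without it. Same-numbered libraries did not deviate together (r = 0.0267, 0.0116 and -0.00931 over 4766 rows). A low correlation cannot exclude that same-numbered libraries were handled together, and the labels do not say. The planned search of member promoters for heat shock elements was not run, because no promoter sequences were at hand.

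These values have limits. Most members rest on under 100 heat counts, and at 0 to 3 control counts neither a zero nor a ratio is sharp. The table holds only genes the authors called changed, so unlisted copies, markers and pathway genes were not analysed. Symbols and descriptions are cut to 8 letters, and in COL8A2 and Cd163 they disagree.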
